A study of Homo sapiens with 8 samples.

Results

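The EGF family comprises growth factors that share an EGF-like fold and the ERBB receptor tyrosine kinases that bind them. Its 10 members studied here were the ligand genes AREG, EREG, TGFA, HBEGF, BTC, EPGN and NRG1 and the receptor genes EGFR, ERBB2 and ERBB3. They were taken by symbol from a table of 58870 genes, and each symbol matched a single gene. The 8 RNA sequencing samples came from CFPAC-1, an established line of human pancreatic ductal adenocarcinoma. Of these, 4 carried an empty vector and 4 carried an ADRA2A transgene, which encodes the alpha-2A adrenergic receptor, a Gi-coupled receptor for adrenaline and noradrenaline that lowers cyclic AMP. Both groups were grown for 72 hours in IMDM with serum and antibiotics, and neither received a drug or an added ligand. The labels did not name the promoter that drives the transgene, and did not say whether the cells were clones or pools. They also did not say whether the 4 samples of a group were separate cultures, so the p-values measure the spread between these samples, which may be technical.

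Most EGF family ligands are made as membrane-anchored precursors and are released by metalloproteases of the ADAM family, after which they act on the same cell or its neighbours. AREG, TGFA and EPGN bind EGFR, while EREG, HBEGF and BTC bind EGFR and ERBB4, and NRG1 binds ERBB3 and ERBB4. ERBB2 has no known soluble ligand and serves as a partner for the others, and ERBB3 has little kinase activity of its own but recruits PI3-kinase strongly. In pancreatic cancer the family is known for autocrine loops in which tumour cells make both EGFR and its ligands.

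Library totals lay between 14427040 and 17528910 counts. ADRA2A had 0 counts in all 4 empty-vector libraries (3 counts, the most that a count of 0 allows, equal between 0.174 and 0.204 CPM there) and 112, 142, 154 and 172 counts in the 4 libraries with the transgene, as the labels require. The epithelial markers EPCAM, KRT8, KRT18, KRT19 and CDH1 were abundant in all libraries, and of the duct markers KRT7, SOX9 and MUC1 were present while CFTR was near 0, with a mean of 0.708 CPM (counts scaled to library size) in the empty-vector and 0.431 CPM in the ADRA2A group. Markers of other cell types were low. The summed level of 6 fibroblast markers lay between 2.34 and 3.37 CPM in the empty-vector and between 1.66 and 2.23 CPM in the ADRA2A libraries, and that of 4 endothelial markers between 2.05 and 2.71 CPM and between 2.64 and 3.35 CPM. The 3 endocrine markers had 0 counts, the 3 acinar markers had at most 4 counts in any library, and of 5 immune markers CD68 alone was abundant (91.6 and 114 CPM on average), with CD3E at 0 throughout. The part of these levels in the results below was not tested.

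In the ADRA2A cells the EGFR ligands AREG, EREG, HBEGF and BTC, the ERBB3 ligand NRG1 and the receptor EGFR were lower, and the receptors ERBB3 and ERBB2 and the ligand TGFA were higher. The largest differences were those of AREG, at 1.90-fold lower, EREG, at 1.85-fold lower, and ERBB3, at 1.89-fold higher. Of the 10 members, 9 passed the filter on low counts, and edgeR's quasi-likelihood test called all 9 (p-values under 0.05 after Benjamini-Hochberg adjustment across every tested gene), 6 lower and 3 higher. Across all 14785 genes tested the same call was made for 42.7%, with 21.1% lower and 21.6% higher. The median absolute log2 fold change was 0.55 for these 9 genes and 0.18 for all genes tested. In all 9 the 4 libraries of one group lay above the 4 of the other, which held for 39.2% of the genes tested (19.5% lower and 19.7% higher). The members were chosen with earlier results of these data known, so these comparisons cannot show that the family stands out from other genes. EPGN did not pass the filter. In bulk RNA, fewer cells that express a gene and less RNA per cell cannot be told apart.

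**Figure D1:**
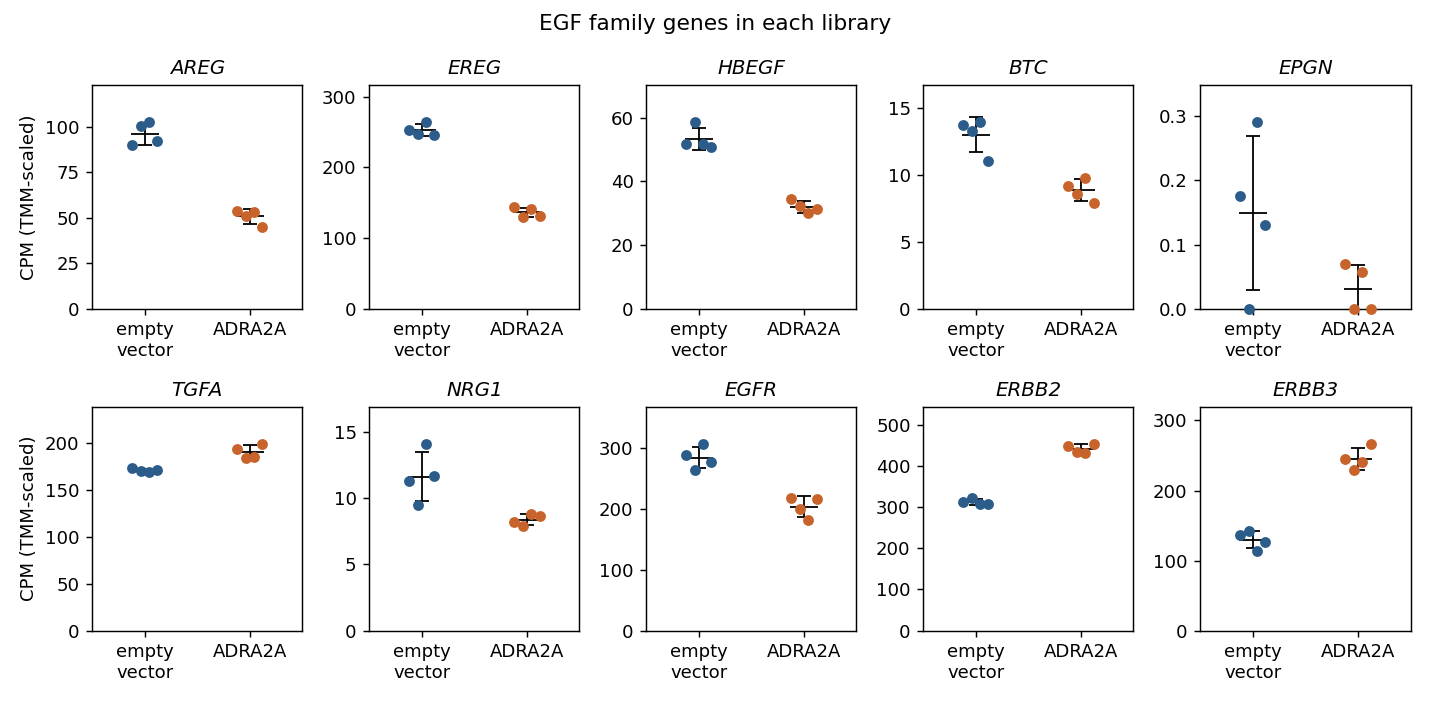
TMM-scaled CPM (vertical axis, from 0) of the 10 genes in each of the 4 empty-vector (blue) and 4 ADRA2A (orange) libraries, with the mean and SD of each group in black. In 9 panels the groups do not overlap, and in the EPGN panel all libraries lie below 0.3 CPM.

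EREG, the epiregulin gene, had the smallest p-value of the family. Its level was 253, 248, 264 and 245 CPM in empty-vector replicates 1 to 4 and 143, 130.2, 141 and 131 CPM in ADRA2A replicates 1 to 4. All 4 libraries with the transgene thus lay far below the lowest empty-vector library. The means were 253 ± 8.19 and 136 ± 6.75 CPM (SD, n = 4 each), and the log2 fold change was -0.89 (standard error 0.04; adjusted p = 1.04e-12, edgeR). EREG (ENSG00000124882.4) lies on the plus strand of chromosome 4, between 74365145 and 74388749 of GRCh38.

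AREG, which encodes amphiregulin, is the next family gene along chromosome 4 (ENSG00000109321.11; 74445136 to 74455005, plus strand). Its level was 90.2, 100.3, 103 and 92.2 CPM in empty-vector replicates 1 to 4 and 54.1, 51.1, 53.2 and 44.8 CPM in ADRA2A replicates 1 to 4. ADRA2A replicate 4 was the lowest library, and the highest library with the transgene was well below the lowest without it. The log2 fold change was -0.92 (standard error 0.06; adjusted p = 1.35e-10, edgeR). AREG and EREG fell in nearly the same proportion. The ratio of EREG to AREG, each per kilobase of exon, was 0.755 ± 0.0413 in the empty-vector and 0.774 ± 0.046 in the ADRA2A libraries (SD, n = 4 each), with overlap between the groups.

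Because AREG and EREG fell together while TGFA rose, the 250 bases upstream of their RefSeq starts are shown, with the RefSeq sequences of GRCh38.p14. GENCODE places the outermost start of TGFA further upstream, so the TGFA window lies inside the GENCODE span given for that gene. Capitals mark the cyclic AMP response element (CRE) TGACGTCA, and its core TGACG where the full element was absent.
AREG, chr4:74444886-74445135, plus strand: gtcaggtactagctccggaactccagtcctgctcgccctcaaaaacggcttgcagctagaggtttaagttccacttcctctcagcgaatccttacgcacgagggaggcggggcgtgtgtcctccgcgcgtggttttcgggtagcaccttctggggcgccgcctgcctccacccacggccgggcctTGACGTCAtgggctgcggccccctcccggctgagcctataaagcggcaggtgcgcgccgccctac
EREG, chr4:74364895-74365144, plus strand: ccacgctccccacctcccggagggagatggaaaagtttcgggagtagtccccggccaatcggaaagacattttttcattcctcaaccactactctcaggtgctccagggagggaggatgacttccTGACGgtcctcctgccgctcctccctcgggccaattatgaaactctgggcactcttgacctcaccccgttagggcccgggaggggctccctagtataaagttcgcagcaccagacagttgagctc
TGFA, chr2:70553827-70554076, minus strand: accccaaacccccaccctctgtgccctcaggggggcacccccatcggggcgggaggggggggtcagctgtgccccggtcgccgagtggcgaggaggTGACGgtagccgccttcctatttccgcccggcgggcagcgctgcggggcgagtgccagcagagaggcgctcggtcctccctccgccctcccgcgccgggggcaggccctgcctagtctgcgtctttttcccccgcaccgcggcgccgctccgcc
The window searched ran from 250 bases before to 50 bases after each start, on both strands. Of the 8 members with a RefSeq promoter entry, AREG was the single one with a full CRE, from -65 to -58 relative to the start. Of 35116 human promoter windows of the same length, 1.85% held a full CRE. The core, which every full CRE contains, was found in 24.6% of the windows, and among members in those of AREG, EREG (from -125 to -121), EPGN and TGFA (from -154 to -150). The AP-1 motif TGANTCA was found in 7.71% of the windows, and in an EGFR and an ERBB2 window but in none of the ligand windows. TGFA and EGFR had 2 windows each, and the other one of TGFA held none of the 3 motifs. The windows of HBEGF and BTC, ligand genes that were also lower in the ADRA2A cells, held none of the 3 motifs either. These matches describe letters and were not tested against the expression values.

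HBEGF, which encodes heparin-binding EGF-like growth factor, was also lower. It had 51.9, 58.6, 51.8 and 50.9 CPM in empty-vector replicates 1 to 4 and 34.5, 32.4, 30.1 and 31.2 CPM in ADRA2A replicates 1 to 4. Empty-vector replicate 2 stood above the other 3, which were close to each other, and no library of one group reached the other. The log2 fold change was -0.73 (standard error 0.06; adjusted p = 5.47e-09, edgeR), a 1.66-fold lower level. HBEGF (ENSG00000113070.8) is on chromosome 5, from 140332843 to 140346603 on the minus strand.

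BTC, which encodes betacellulin, stood near the middle of all tested genes per length, at the 52.1st percentile in the empty-vector cells (ENSG00000174808.12; chromosome 4, 74744759 to 74794523, minus strand). It had 13.8, 13.3, 13.9 and 11.1 CPM in empty-vector replicates 1 to 4 and 9.20, 8.58, 9.79 and 7.91 CPM in ADRA2A replicates 1 to 4. The lowest empty-vector library was 1 of 4 and still lay above every library with the transgene. The log2 fold change was -0.55 (standard error 0.10; adjusted p = 0.000218, edgeR). EPGN, the epigen gene (ENSG00000182585.9; chromosome 4, 74308470 to 74316789, plus strand), lies in the same gene cluster as EREG, AREG and BTC. It had 3, 0, 5 and 2 counts in the empty-vector and 1, 0, 1 and 0 counts in the ADRA2A libraries. At this depth no difference in EPGN was detectable.

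TGFA, which encodes transforming growth factor alpha, was the ligand that went the other way (ENSG00000163235.16; chromosome 2, 70447284 to 70554193, minus strand). It had 173, 170.2, 169 and 171 CPM in empty-vector replicates 1 to 4 and 193, 183, 184 and 199 CPM in ADRA2A replicates 1 to 4. The empty-vector libraries were nearly identical, and all 4 libraries with the transgene were above them. The difference was small, with a log2 fold change of 0.15 (standard error 0.04; adjusted p = 0.00189, edgeR), or 1.11-fold.

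NRG1, the neuregulin 1 gene, was per length the least abundant of the 9 tested members (ENSG00000157168.19; chromosome 8, 31639222 to 32855666, plus strand). It had 11.2, 9.50, 14.1 and 11.7 CPM in empty-vector replicates 1 to 4 and 8.17, 7.85, 8.76 and 8.67 CPM in ADRA2A replicates 1 to 4. The empty-vector libraries spread widely, with a coefficient of variation of 16.2% against 5.12% in the ADRA2A group. The gap between the groups was narrow. The log2 fold change was -0.48 (standard error 0.11; adjusted p = 0.00215, edgeR), and it lay between -0.56 and -0.37 over the 15 alternative fits.

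Among the receptors, EGFR was lower in the ADRA2A cells. It had 289.8, 265, 307 and 278 CPM in empty-vector replicates 1 to 4 and 218, 199.8, 183 and 217 CPM in ADRA2A replicates 1 to 4. Empty-vector replicate 3 was the highest and ADRA2A replicate 3 the lowest library, and the groups did not overlap. The means were 285 ± 17.97 and 204 ± 16.8 CPM (SD, n = 4 each), and the log2 fold change was -0.48 (standard error 0.05; adjusted p = 3.47e-07, edgeR). EGFR (ENSG00000146648.18) is on chromosome 7, from 55019017 to 55211628 on the plus strand.

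ERBB3, the receptor for neuregulins, rose most. It had 137, 143, 114 and 126 CPM in empty-vector replicates 1 to 4 and 245, 229, 241 and 266 CPM in ADRA2A replicates 1 to 4. Empty-vector replicate 3, the library with the highest EGFR level, had the lowest ERBB3 level. The log2 fold change was 0.92 (standard error 0.06; adjusted p = 1.03e-10, edgeR). ERBB3 (ENSG00000065361.15) is on chromosome 12, from 56076799 to 56103505 on the plus strand.

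ERBB2, the shared partner receptor, had 311, 322, 306 and 307 CPM in empty-vector replicates 1 to 4 and 448, 433, 431 and 453 CPM in ADRA2A replicates 1 to 4. The spread within each group was small, with coefficients of variation of 2.40% in both groups, and the groups were far apart. The log2 fold change was 0.50 (standard error 0.03; adjusted p = 1.96e-10, edgeR), or 1.42-fold. ERBB2 (ENSG00000141736.13) is on chromosome 17, from 39687914 to 39730426 on the plus strand. In GENCODE its span overlaps MIEN1 and PGAP3 on the opposite strand. The use of strand in counting is not given in the sources used here, so reads of the overlaps cannot be assigned with certainty. MIEN1 averaged 59.4 CPM with a log2 fold change of 0.23, and PGAP3 averaged 46.2 CPM with 0.80. No other member overlapped a gene that averaged 1 CPM or more.

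Levels of different genes were compared as CPM per kilobase of the union of a gene's exons. In the empty-vector cells the order from the top was AREG (58.7 ± 3.70), EREG (44.2 ± 1.43), TGFA (34.7 ± 0.333), ERBB2 (30.2 ± 0.723), EGFR (17.9 ± 1.13), HBEGF (17.8 ± 1.19), ERBB3 (11.1 ± 1.07), BTC (4.91 ± 0.502), NRG1 (0.543 ± 0.0879) and EPGN (0.0452 ± 0.0364), all as CPM per kilobase (SD, n = 4). EGFR and HBEGF overlapped between libraries, and no other neighbours in this order did. AREG was thus the most abundant family transcript per length and stood at the 95.8th percentile of all genes tested. In the ADRA2A cells the top of the order was ERBB2 (42.8 ± 1.03), TGFA (38.6 ± 1.48), AREG (30.9 ± 2.53), EREG (23.9 ± 1.18), ERBB3 (21.0 ± 1.33), EGFR (12.8 ± 1.05) and HBEGF (10.7 ± 0.630), again as CPM per kilobase, and the last 3 places were unchanged. Here too EGFR and HBEGF were the single pair of neighbours whose libraries overlapped. With the longest transcript as the length, the first place in each group was the same, but ERBB2 was second in the empty-vector cells and ERBB3 passed EREG in the ADRA2A cells, its libraries overlapping those of AREG.

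The make-up of the transcripts shifted within both the ligands and the receptors. The summed level of the 6 listed ligands of EGFR, at 160.3 ± 5.13 CPM per kilobase in the empty-vector libraries, was 107.5 ± 3.69 CPM per kilobase in the ADRA2A libraries (SD, n = 4 each). EGF, which is not among the listed members, was left out of this sum. TGFA made up 21.7% ± 0.856 of this sum without and 35.9% ± 1.94 with the transgene, while AREG went from 36.6% ± 1.23 to 28.8% ± 1.69 and EREG from 27.6% ± 0.759 to 22.2% ± 0.470. The share of HBEGF was 11.1% ± 0.629 without and 9.98% ± 0.468 with the transgene. The libraries did not overlap for these 4 shares. The share of BTC was 3.06% ± 0.265 and 3.11% ± 0.224, with overlap between the groups.

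Of the summed level of EGFR, ERBB2 and ERBB3 per kilobase, EGFR made up 30.3%, 27.7%, 32.9% and 30.1% in empty-vector replicates 1 to 4 and 17.6%, 16.9%, 15.5% and 17.0% in ADRA2A replicates 1 to 4. ERBB3 went from 18.7% ± 1.58 to 27.4% ± 0.916 and ERBB2 from 51.0% ± 0.808 to 55.9% ± 0.939 (SD, n = 4 each). EGFR exceeded ERBB3 per length in each empty-vector library, with ratios of 1.56, 1.37, 1.98 and 1.63. It was below ERBB3 in each ADRA2A library, with ratios of 0.656, 0.641, 0.556 and 0.598. With the longest transcript as the length the mean ratios were 1.40 and 0.527. These shares are descriptions of genes whose differences are given above, with no test of their own.

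**Figure D2:**
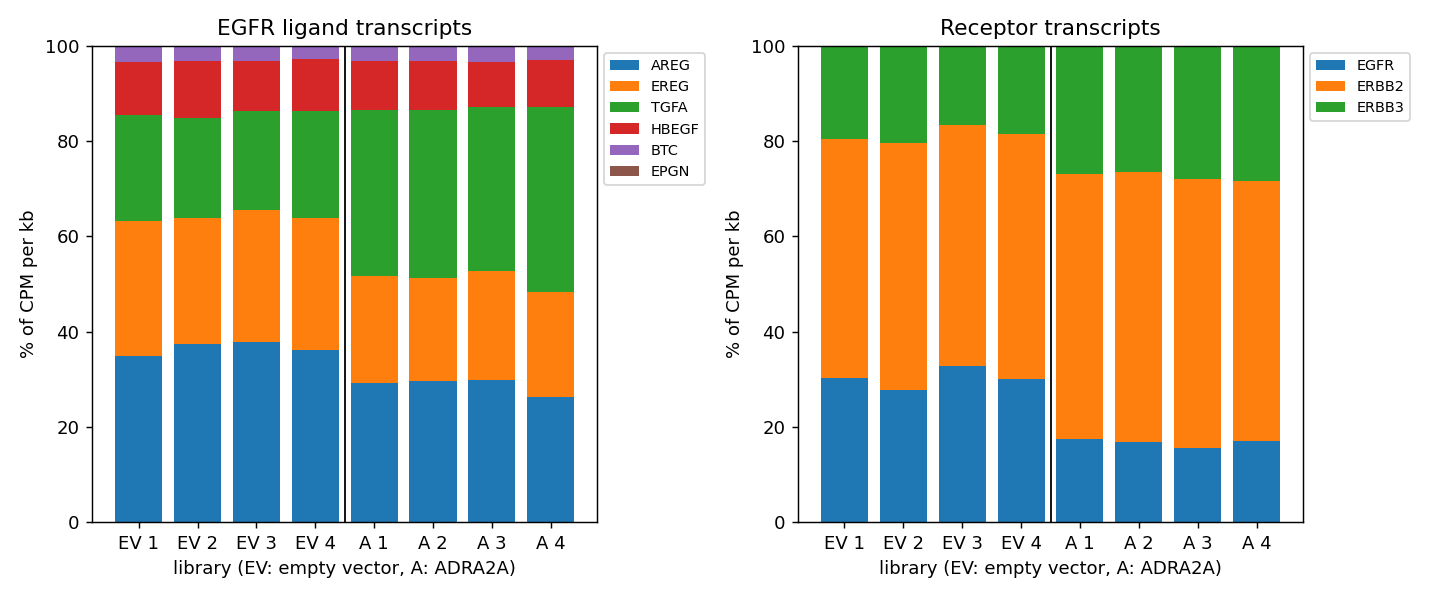
Share (%) of each gene in the summed CPM per kilobase of the 6 listed EGFR ligands, without EGF (left), and of EGFR, ERBB2 and ERBB3 (right), 1 bar per library, with the 4 empty-vector libraries left and the 4 ADRA2A libraries right of the black line. TGFA takes a larger and AREG and EREG a smaller share in the ADRA2A libraries, and EGFR a smaller and ERBB3 a larger share of the receptors.

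Because groups of neighbouring genes can shift together, each member was set beside the 15 nearest tested genes on either side of it. These stretches were of unlike size. They spanned 19.2 megabases for EGFR, 9.3 for NRG1, 6.1 for AREG, EREG and BTC, and 4.2 for TGFA. For HBEGF and ERBB2 they spanned 1.4 megabases, and for ERBB3 0.6. EPGN, EREG, AREG and BTC lie in a cluster on chromosome 4 and share the same 30 neighbours. These had a median log2 fold change of -0.14, with 13 called lower and 4 higher, and 1 of the 30 was lower than AREG or EREG. The largest called change among them was that of FAM47E, at 1.43 (standard error 0.24; adjusted p = 7.42e-05, edgeR), which shares exons with the readthrough gene FAM47E-STBD1, so that its counts are uncertain. For HBEGF the neighbours had a median of 0.12, opposite to HBEGF itself, with 9 called higher and 1 lower, and TMEM173, the STING gene, had the largest called change (1.29). For ERBB3 the median was 0.05, with none of the 30 as high as ERBB3 and TMEM198B the largest called change, at 0.48. For NRG1 it was 0.03, with none as low, and KIF13B had the largest called change, at 0.46. For TGFA the median was 0.02, with 9 of the 30 as high as TGFA, and the largest called change was that of ANTXR1 (-1.36).

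As around AREG, EREG and BTC, called neighbours of EGFR and ERBB2 were mostly in the member's own direction. The same held for TGFA, with 8 called higher and 3 lower, and for ERBB3, with 9 higher and 5 lower. Around NRG1 7 were called higher and 1 lower, opposite to NRG1 itself. Of the whole set of tested genes, 21.1% were called lower and 21.6% higher. Of the 30 genes around EGFR 15 were called lower and 4 higher, their median log2 fold change was -0.20, and 5 were as low as EGFR. The largest called change there was that of the pseudogene FKBP9P1 (-1.88). Of the 30 genes around ERBB2 17 were called higher and 2 lower, with a median of 0.18, and 9 were as high as ERBB2. IKZF3, a transcription factor gene, had the largest called change there, in the other direction (-2.42). The part of these neighbourhoods in the differences of the members was not tested.

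**Figure D3:**
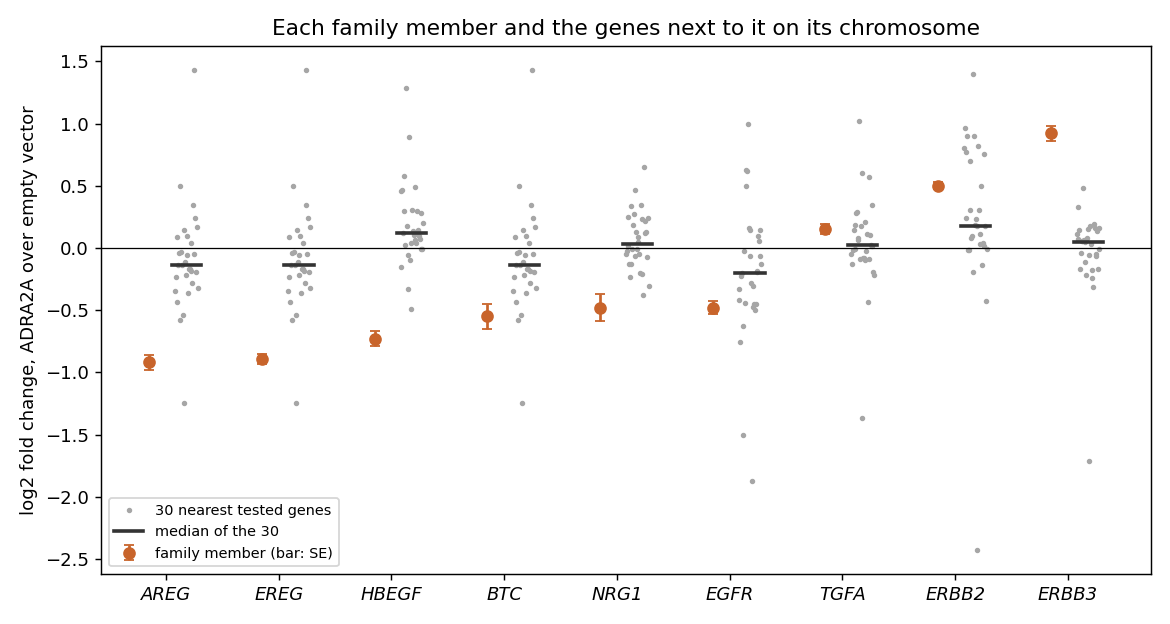
Log2 fold change (ADRA2A over empty vector) of the 9 tested members (orange, with SE) beside the 30 nearest tested genes of each (grey) and their median (black bar). AREG, EREG, HBEGF and ERBB3 lie far from their neighbours' medians, while several neighbours of TGFA, EGFR and ERBB2 changed as much as the member did.

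Of the remaining genes of the family, NRG3 had a level in CPM near those of BTC and NRG1, and the others were low. The levels of these 3 genes were not compared per length here. Their exon unions measure 5192 bases for NRG3, 2653 for BTC and 21372 for NRG1. EGF, the founding ligand, had 2.09 ± 0.208 and 2.40 ± 0.208 CPM (SD, n = 4 each), with a log2 fold change of 0.20 (standard error 0.21; adjusted p = 0.477, edgeR). NRG3 had 13.5 ± 0.678 and 11.7 ± 1.13 CPM, with a log2 fold change of -0.21 (standard error 0.09; adjusted p = 0.0668, edgeR). Its groups did not overlap, but the gap was narrow, from 12.8 CPM in the lowest empty-vector to 12.5 CPM in the highest ADRA2A library. Neither of these 2 tested genes was called by edgeR's quasi-likelihood test, DESeq2 or limma voom, and 1 of them, NRG3, had an unadjusted p-value under 0.05. The receptor gene ERBB4 had 4, 5, 15 and 4 counts in the empty-vector and 0, 1, 3 and 1 counts in the ADRA2A libraries. NRG2 had 3, 1, 0 and 2 counts in the empty-vector and 7, 9, 7 and 12 counts in the ADRA2A libraries. Both failed the filter on low counts, and with no filter ERBB4 was called lower (edgeR adjusted p = 0.0188) and NRG2 higher (edgeR adjusted p = 0.00384). NRG4 had at most 11 counts in any library and failed the filter too, and with no filter it was not called (edgeR adjusted p = 0.963).

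Genes whose levels lay closest to those of EREG were looked for among those that averaged 10 CPM or more. The measure was the root mean square difference of log2 CPM over the 8 libraries, after each gene was centred on its own mean. The nearest 3 outside the family were NES, the gene of the filament protein nestin (0.054), MYEOV (0.055) and TAGLN, the gene of the actin-binding protein transgelin (0.056). Within the family AREG lay at 0.072 and HBEGF at 0.121 from EREG. NES had a log2 fold change of -0.94 (standard error 0.05; adjusted p = 3.00e-11, edgeR). MYEOV and TAGLN both had -0.88, beside -0.89 for EREG. The measure includes the difference between the groups, so it favours genes with a fold change like that of EREG. It does not show that these genes vary with EREG within a group.

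Genes that act around the receptors were described from 4 lists, written with earlier results of these data known. Of all genes tested, 21.6% were called higher and 21.1% lower. For release of the ligands, 12 of 14 genes were tested, of which 8 were higher and 0 lower, with a median log2 fold change of 0.18 where all genes tested had 0.00. The single member with an unadjusted p-value under 0.05 in the lower direction was ADAM8, with an adjusted p-value of 0.0709 in edgeR, and DESeq2 and limma voom also called 0 lower. BACE1, a protease that cleaves neuregulin 1, rose from 44.9 ± 1.96 to 61.9 ± 4.61 CPM (mean ± SD, n = 4 each), with a log2 fold change of 0.46 (standard error 0.06; adjusted p = 1.74e-06, edgeR). ADAM10, a sheddase of betacellulin and EGF, rose by a log2 fold change of 0.22 (standard error 0.03; adjusted p = 2.49e-05, edgeR), and CNIH1, whose family helps TGFA-like precursors leave the endoplasmic reticulum, by 0.18. ADAM17, the main sheddase of AREG, EREG, HBEGF and TGFA, was named after its values were seen. It rose from 63.9 ± 2.94 to 74.5 ± 2.54 CPM (mean ± SD, n = 4 each), with a log2 fold change of 0.22 (standard error 0.05; adjusted p = 0.000675, edgeR).

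Of 15 genes that restrain the receptors, all were tested, 7 were lower and 3 higher, and the median log2 fold change was -0.09. LRIG1, a membrane protein that promotes the breakdown of ERBB receptors, fell from 29.1 ± 0.797 to 18.5 ± 0.519 CPM (mean ± SD, n = 4 each), with a log2 fold change of -0.65 (standard error 0.06; adjusted p = 7.73e-08, edgeR). ERRFI1, an inhibitor of the EGFR kinase, had a log2 fold change of -0.29 (standard error 0.04; adjusted p = 3.59e-06, edgeR), and CBL, a ubiquitin ligase of EGFR, of -0.39 (standard error 0.06; adjusted p = 1.80e-05, edgeR). The 3 called higher were the phosphatase genes PTPRJ (0.12) and PTPRK (0.11) and RNF41 (0.16), which encodes a ubiquitin ligase of ERBB3. Their adjusted p-values in edgeR were 0.0335, 0.0473 and 0.0475. These 3 calls depended on the fit. DESeq2 called 1 gene higher, upper quartile factors left 0, and the fits without empty-vector replicate 3 or replicate 4 also left 0. Leaving out empty-vector replicate 1 or 2, or ADRA2A replicate 1, 3 or 4, left 1.

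All 28 adaptor and kinase genes below the receptors were tested, 9 were higher and 8 lower, and the median log2 fold change was 0.03. Those with the smallest p-values were PIK3CB, a catalytic subunit gene of PI3-kinase (0.44), SHC1, an adaptor of phosphorylated receptors (0.32), and STAT3 (0.30) among the higher, and MAP2K1, the MEK1 gene (-0.29), PLCG1 (-0.27) and NRAS (-0.24) among the lower. All 10 genes of a published score of ERK pathway output were tested, and they also went both ways, 5 lower and 3 higher with a median of -0.15. CCND1, the cyclin D1 gene, fell from 479.6 ± 5.67 to 356 ± 4.93 CPM (mean ± SD, n = 4 each), with a log2 fold change of -0.43 (standard error 0.03; adjusted p = 6.75e-10, edgeR). SPRY2, a feedback inhibitor of receptor signalling, fell by 0.67 on the log2 scale and the ephrin receptor gene EPHA4 fell by 0.56. ETV5 rose by 0.35, the ERK phosphatase gene DUSP6 by 0.20 and SPRY4 by 0.17. The counts of these lists are read against the 42.7% of all tested genes that were called, with 21.6% higher and 21.1% lower.

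**Figure D4:**
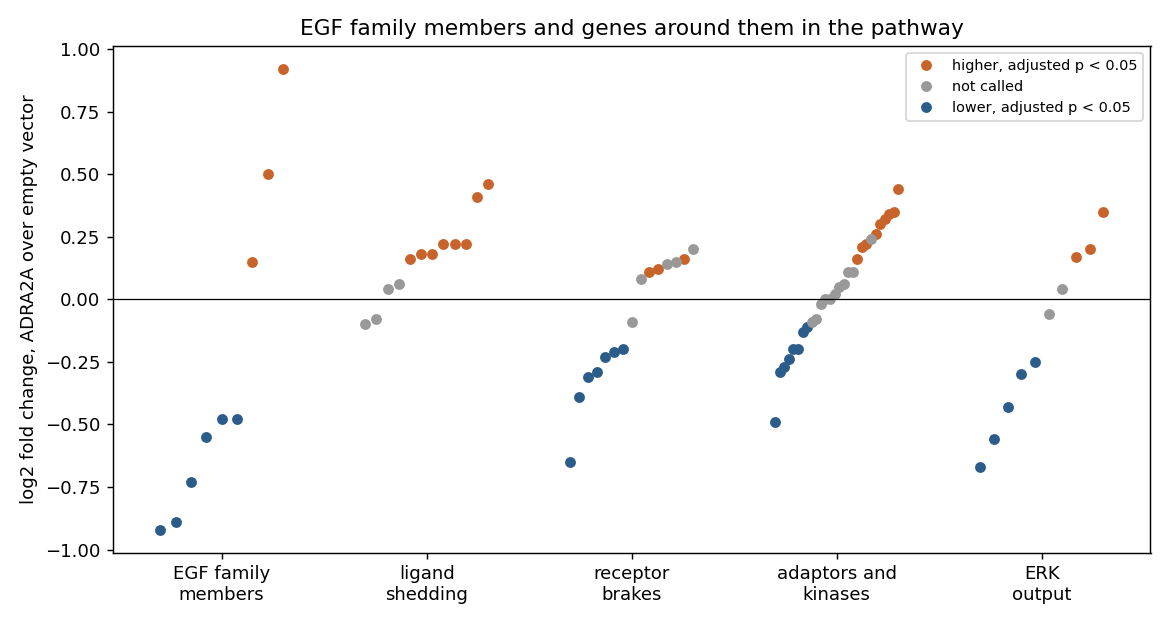
Log2 fold change (ADRA2A over empty vector) of the 9 tested family members and of the tested genes of 4 pathway lists, sorted within each list, in orange where higher, blue where lower and grey where not called by edgeR at an adjusted p-value under 0.05. The family members span from -0.92 to 0.92, a wider range than that of any of the 4 lists. Members and lists were chosen with earlier results of these data known, so this cannot show that the family stands out.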

How the data were processed

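Bulk RNA sequencing counts of 8 CFPAC-1 samples were used, 4 with an empty vector and 4 with the ADRA2A transgene, with groups and replicate numbers from the sample titles. The authors deposited RSEM estimated counts per gene and sample, not scaled between samples. The submitters' processing notes name cutadapt, STAR, RSEM and DESeq2 and the build hg38, with no versions. The annotation release and the strand setting are not given in the sources used here.

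The estimates were first rounded to integers. Genes passing filterByExpr in edgeR 4.0.16 (14785) were scaled by TMM and tested with the quasi-likelihood test on all 8 libraries, with group as the single term and Benjamini-Hochberg adjustment over all genes tested. The SE is the absolute log2 fold change divided by the square root of F. CPM are TMM-scaled. Coordinates and lengths came from GENCODE release 44 on GRCh38 (99.4% of genes matched), and promoters from RefSeq.

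Alternatives were DESeq2 1.42.0, limma voom 3.58.1, RLE and upper quartile factors, other count filters, a replicate block and fits lacking each library in turn. The members and lists were chosen with earlier results of these data known. Genes named by rule were ADRA2A, all members, the remaining family genes, the 3 called with the smallest p-value in each direction of each list, the 3 genes most like EREG and 1 neighbour per member. The cell type markers, ADAM8, ADAM17, MIEN1 and PGAP3 were named outside this rule. Same-numbered samples did not deviate together, with correlations between -0.042 and 0.07. Replicates of a group differed by more than counting noise, with a chi-square per degree of freedom between 2.123 and 4.59. The common coefficient of variation estimated by edgeR was 4.96%. These values do not show whether the samples were separate cultures.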

Additional observations from a re-analysis of the deposited data

Results flagged for a closer look

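The levels of the 47 genes named by rule were examined within each group of 4 libraries, which gave 93 groups with any spread. In 6 of them 1 library stood apart from the other 3 by more than Dixon's 95% critical value allows. Chance alone flags about 1 in 20 groups. The single one of the 10 listed members among them was HBEGF, with 58.6 CPM in empty-vector replicate 2 and between 50.9 and 51.9 CPM in the other 3 empty-vector libraries. The other 5 were ERBB4, with 0.871 CPM in empty-vector replicate 3 and between 0.234 and 0.339 CPM in the others, FAM47E, with 2.23 CPM in empty-vector replicate 4 and between 1.22 and 1.29 CPM in the others, and TAGLN, with 24.9 CPM in empty-vector replicate 4 and between 27.6 and 28.0 CPM in the others. NRAS had 79.4 CPM in ADRA2A replicate 4 and between 75.8 and 76.2 CPM in the others, and SPRY2 had 19.8 CPM in ADRA2A replicate 2 and between 23.3 and 23.9 CPM in the others.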

How the results depend on the processing

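The family counts of 6 lower and 3 higher genes were the same in all 15 alternative fits, and each of the 9 tested members kept its direction and its call in all of them. The replicate block gave 6 lower and 3 higher members too and changed no call of a gene named by rule. It moved the count of calls over all genes from 6314 to 6400. No pairing by number was seen in these values, since not every sample correlated best with its own number. The labels do not say whether same-numbered samples were paired, and this check cannot settle it.

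Changes in the list counts by more than 1.5 times were as follows. With no filter, 1 of the remaining family genes was called higher and 1 lower, against 0 of each, because genes with few counts were then tested. Upper quartile factors called 1 ligand-release gene lower, against 0, and 0 of the receptor brakes higher, against 3. With these factors 46.4% of all calls were in the higher direction, against 50.6%, and the median log2 fold change of all genes was -0.02. DESeq2 called 1 of the receptor brakes higher. When each library was left out in turn, that count lay between 0 and 3, and the count of ligand-release genes called lower between 0 and 1, with 1 without empty-vector replicate 3. Elsewhere the list counts moved by at most 1 gene. The cause of these changes was not tested. With the longest transcript as the length, levels per kilobase were higher for every member except BTC, whose length was the same. Genes with under about 10 counts per library, EPGN among them, are limited by depth.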
